A study of Mus musculus with 36 samples.

Results

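The cytoplasmic RNA of mouse naive embryonic stem (ES) cells was compared with that of primed ES cells. The comparison used 4 of the 36 samples of the series, 2 libraries of naive and 2 of primed cytoplasm, which were chosen by their labels and not by their values. In the other libraries the series holds RNA of sorted P-bodies, of fibroblasts, of reprogramming cells and of polysomes, and these did not enter the comparison. All cells were v6.5 ES cells per the culture methods of the study, whose reporting summary names KH2 as the mouse line instead, and all carried a lentiviral transgene for GFP-LSM14A, a tagged P-body protein driven by the EF1a promoter. Naive cells grew in N2B27 medium with LIF, the MEK inhibitor PD0325901 and the GSK3 inhibitor CHIR99021. Primed cells were made from the naive cells by plating them on Matrigel in N2B27 medium with activin A, bFGF and serum replacement, so the groups differ in medium, substrate and state together, and these cannot be told apart. The cytoplasm is the lysate after nuclei were spun out and DNA digested, collected as a pellet of a faster spin and not sorted, so it still contains P-bodies and lacks what that spin leaves in solution.

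Naive cells resemble the epiblast of the embryo before implantation and primed cells the epiblast after it. The naive state is held by LIF, which signals through STAT3, and by the inhibition of MEK and of GSK3, which blocks ERK signalling and keeps beta-catenin active. Its factors include Klf2, Klf4, Tfcp2l1, Esrrb, Nanog and Prdm14. The primed state depends on activin and FGF, its cells form an epithelium, and their genome is methylated by the de novo DNA methyltransferases, with Otx2, Pou3f1 and Fgf5 among the genes that mark it. Both states express Pou5f1 (Oct4) and Sox2, the core factors of pluripotency.

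The naive libraries held 12772173 and 12334513 reads assigned to genes and the primed libraries 6769727 and 8019404, so the primed libraries were shallower. Across 9826 genes the naive replicates had a Spearman correlation of 0.962 and the primed replicates of 0.988, while pairs across the states had 0.746 to 0.777. The SD of the log2 ratio between replicates was 0.474 in naive and 0.237 in primed cytoplasm, so the naive pair was the less alike. The labels number the replicates 1 and 2, and the study describes them as independent biological samples. Expression is given as CPM, the reads of a gene scaled to a common library size, after adjustment by the trimmed mean of M values (TMM). Fold changes are log2 values of naive over primed with their standard error, so that a value above 0 means more RNA in naive cytoplasm. A CPM is not corrected for gene length, so it is compared between libraries for 1 gene or 1 list. The genes of highest CPM are those with most reads, and a long gene gives more reads than a short one at the same level.

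The states differed at a large part of all genes. Of 16125 genes tested, 7056 were called at an adjusted p under 0.05 by edgeR's quasi-likelihood test, which is 43.8% of them, with 3569 (22.1%) higher in naive and 3487 (21.6%) higher in primed cytoplasm. The median over all tested genes was 0.0033. At least 4-fold differences were found for 944 of the genes higher in naive and for 1405 of those higher in primed cytoplasm. The split between the directions depends on the scaling: with library totals in place of TMM the median of all genes moved to −0.20, and 2664 genes were called higher in naive and 4349 in primed cytoplasm, so that 38.0% instead of 50.6% of the calls were naive. The number of calls depends on the primed libraries: without primed replicate 1 it fell to 2242 and without primed replicate 2 to 2612, where the spread is estimated from the naive pair alone. Of 471 called genes that are on the lists below or lead by fold or level, 220 and 205 were not called without primed replicate 1 or 2 and 0 were lost without either naive library. Without a naive library the spread is estimated from the primed pair alone, whose replicates were closer. That 0 calls were lost there thus does not show that they hold without that library. Among the genes named below, those not called without primed replicate 1 and also not called without primed replicate 2 are Actn4, Ago2, Atp5b, Bmi1, Cbx7, Ccnd2, Dcp1a, Ddx6, Dnmt1, Dppa3, Eed, Eno1, Etv1, Ftl1, Fzd5, Gata6, Grb2, Hmga2, Hsp90aa1, Ier2, Igfbp2, Il6st, Itgb1, Lama1, Mixl1, Neat1, Pim1, Pim3, Sall1, Sall4, Slc2a3, Smad3, Sox2, Sox7, Spry2, Suz12, Sycp1, T, Tagln2, Tead2, Uqcrc1, Wnt3a, Xrn1 and Zeb1. Those lost only without primed replicate 1 are Acvr2a, Bmpr1a, Flna, Gata2, Hells, Hk2, Jarid2, Khdc3, Krt8, Map2k1, Nodal, Rn45s, Sall3, Tcf7l1, Trib3, Uhrf1, Zfp57 and Zscan4d, and those lost only without primed replicate 2 are Egr1, Ezh1, Fgf3, Mycn, Phf19, Snai2 and Sox1. Library totals ended 40 of the 471 calls, with Ago2, Ftl1, Ier2, Lama1, Sall1, Slc2a3, Suz12 and Tagln2 among the named genes. Of the named genes, Dcp1a, Ftl1 and Mixl1 were not called by DESeq2 or with the replicate number as a block, Ftl1 and Mixl1 with the crossed block, Dcp1a without a filter on low reads, and Mixl1 and Sall1 in either fit with more libraries. The library kit does not mark strand, so reads of a gene and an antisense neighbour, such as Kcnq1ot1 and Kcnq1, Mest and Copg2, Tagln and Pcsk7, Braf and Ndufb2, Jun and Junos or Otx2 and Otx2os1, cannot be told apart. In bulk RNA, fewer cells of a type and less RNA per cell cannot be told apart.

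**Figure D1:**
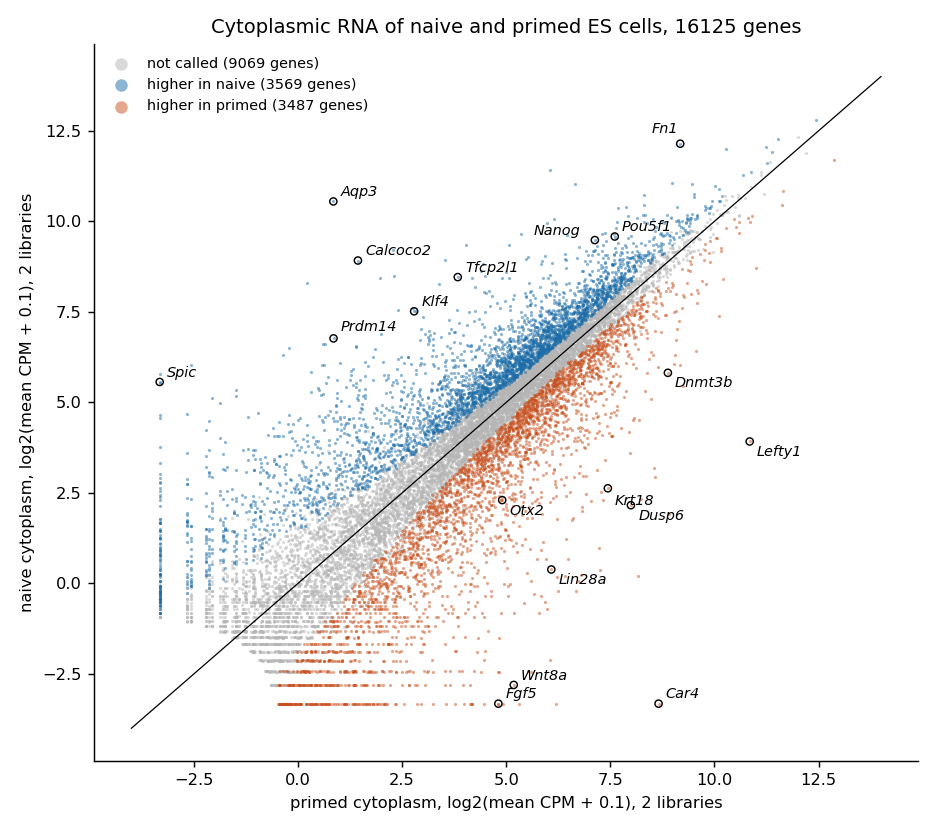
Mean level of each of the 16125 tested genes in primed (x axis) and naive cytoplasm (y axis), as log2 of the mean CPM of 2 libraries plus 0.1. Blue points are the 3569 genes called higher in naive and orange points the 3487 called higher in primed cytoplasm, the line marks equal levels, and circles mark named genes, such as Aqp3 and Calcoco2 above the line and Car4 and Lefty1 far below it.

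The genes with the largest differences were present in 1 state and at or close to 0 in the other. On the naive side, 6 of the leading 12 genes had 0 reads in both primed libraries. Bhmt (chromosome 13, 93616891 to 93637758), which encodes betaine-homocysteine methyltransferase, had 74.3 and 36.5 CPM in naive and 0 and 0 CPM in primed libraries. Its naive mean was at least 292-fold higher than the floor of 3 reads in the primed group. The naive replicates of Bhmt differ from each other, yet both lie far above the primed ones. Spic (chromosome 10, 88675269 to 88683023), a transcription factor of the ETS family, had 50.6 and 43.8 CPM in naive and 0 and 0 CPM in primed libraries and was at least 249-fold higher. The short-chain fatty acid receptor genes Ffar3 and Ffar2 lie near each other on chromosome 7, and both were among the leading genes. Ffar3 had 38.2 and 54.2 CPM in naive and 0 and 0 CPM in primed libraries, at least 243-fold higher, and Ffar2 had 14.1 and 12.7 CPM in naive and 0 and 0 CPM in primed libraries, at least 70-fold higher. Trpm1 and the acute-phase gene Saa3 were at least 133-fold and 123-fold higher, and the naive replicates of Trpm1 were far apart at 12.4 and 37.9 CPM.

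The other leading naive genes had reads in a primed library. Aqp3 (chromosome 4, 41092724 to 41098183), the aquaglyceroporin that passes water and glycerol, had 1893 and 1107 CPM in naive and 1.65 and 1.75 CPM in primed libraries (log2 fold change 9.77 ± 0.40, adjusted p = 0.000128). Calcoco2 (chromosome 11, 96098916 to 96124560), an autophagy receptor, had 493 and 475 CPM in naive and 2.89 and 2.33 CPM in primed libraries (log2 fold change 7.54 ± 0.17, adjusted p = 6.77e-05). Its naive replicates were close to each other, in contrast to those of Cdx1, a caudal homeobox gene and target of Wnt signalling. Cdx1 had 464 and 161 CPM in naive and 0.964 and 1.17 CPM in primed libraries (log2 fold change 8.17 ± 0.72, adjusted p = 0.000777), and the groups were apart although the naive replicates differed. Crxos, a homeobox gene of the preimplantation embryo, had 89.5 and 41.5 CPM in naive and 0.138 and 0 CPM in primed libraries (log2 fold change 9.75 ± 0.80, adjusted p = 0.000634). Ly6a, which encodes the surface antigen Sca-1, had 27.9 and 23.7 CPM in naive and 0 and 0.117 CPM in primed libraries (log2 fold change 8.41 ± 0.51, adjusted p = 0.000295). Nnmt, a methyltransferase that uses S-adenosylmethionine to methylate nicotinamide, had 44.0 and 25.4 CPM in naive and 0.275 and 0 CPM in primed libraries (log2 fold change 7.96 ± 0.68, adjusted p = 0.000713). These genes were chosen by their fold, so that the groups are apart at them is no finding.

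On the primed side all 12 leading genes had 0 reads in both naive libraries. Car4 (chromosome 11, 84957754 to 84966054), a membrane-anchored carbonic anhydrase, had 429 and 379 CPM in primed and 0 and 0 CPM in naive libraries, at least 3155-fold above the floor of 3 reads in the naive group. Car3, a cytosolic carbonic anhydrase, was at least 137-fold higher. Fgf5 (chromosome 5, 98254184 to 98277033), the fibroblast growth factor that marks the postimplantation epiblast, had 28.8 and 27.2 CPM in primed and 0 and 0 CPM in naive libraries, at least 218-fold higher. The chemokine gene Cxcl12 was at least 308-fold higher. Of the muscle actins, Acta2 and Acta1 were on this list. Acta2 (chromosome 19, 34240336 to 34255585), smooth muscle actin, had 32.0 and 23.8 CPM in primed and 0 and 0 CPM in naive libraries, at least 217-fold higher. Acta1 (chromosome 8, 123891758 to 123894775), skeletal muscle actin, had 20.8 and 15.4 CPM in primed and 0 and 0 CPM in naive libraries, at least 141-fold higher. Has2, which makes hyaluronan, was at least 122-fold higher, the leukotriene receptor gene Cysltr1 at least 140-fold and the guanylate-binding protein gene Gbp2 at least 136-fold. Fndc3c1, Clca4a and Tmem154 completed the list at 567-fold, 236-fold and 172-fold or more. In all, 155 of the genes called higher in primed cytoplasm had 0 reads in both naive libraries, and 94 of those called higher in naive cytoplasm had 0 reads in both primed libraries.

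Promoters of leading genes are shown because the genes that moved together differ in the CpG content there. RefSeq gives a promoter for 400 of 512 genes of at least 10 CPM that were at least 4-fold higher in naive cytoplasm and for 416 of 562 at least 4-fold higher in primed cytoplasm. Within the 250 bases before the start (the start with most CpGs where a gene has several), the naive genes had a median of 12 CpG dinucleotides (quartiles 6 and 21), the primed genes of 15.5 (9 and 24) and the 4150 genes not called of 18 (12 and 25). Promoters with 5 or fewer CpGs made up 22.5%, 14.2% and 6.19% of these classes, and 49.6% of all 32851 promoters of the table. Both sets of strongly changed genes thus held more CpG-poor promoters than the genes not called. The last 120 bases before the start are printed for 2 genes of each direction (RefSeq, GRCm38.p6, 5′ to 3′), with each CpG in capitals. Spic has 1 CpG in its 250 bases, Aqp3 14, Fgf5 24 and Car4 11.
Spic (chr10:88683024-88683143, minus strand): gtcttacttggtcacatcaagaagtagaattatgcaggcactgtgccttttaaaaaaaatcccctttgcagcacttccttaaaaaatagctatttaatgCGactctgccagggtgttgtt
Aqp3 (chr4:41098184-41098303, minus strand): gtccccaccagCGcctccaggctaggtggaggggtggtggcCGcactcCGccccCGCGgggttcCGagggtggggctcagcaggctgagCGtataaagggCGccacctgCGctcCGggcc
Fgf5 (chr5:98254064-98254183, plus strand): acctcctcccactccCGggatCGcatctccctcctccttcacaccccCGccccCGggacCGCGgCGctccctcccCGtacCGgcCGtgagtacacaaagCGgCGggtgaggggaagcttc
Car4 (chr11:84957634-84957753, plus strand): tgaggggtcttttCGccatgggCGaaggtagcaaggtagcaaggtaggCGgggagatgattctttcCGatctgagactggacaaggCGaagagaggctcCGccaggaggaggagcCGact

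Motifs known for a naive factor and for muscle genes were also searched on both strands of the same 250 bases, a choice made after the fold changes were seen. The letters TCAAGGTCA, which Esrrb binds, occurred in the promoters of 2 of 400 genes at least 4-fold higher in naive (Bhmt and Sgk1), in 0 of 416 at least 4-fold higher in primed cytoplasm and in 0.387% of all promoters. Among the genes not called it was 0.241%. The share of all promoters counts promoters and not genes, and includes genes under 10 CPM. The shorter AAGGTCA, which every TCAAGGTCA contains, occurred in 6.50%, 2.64% and 4.08%, and in 3.66% of the genes not called. The CArG box, which serum response factor binds, occurred in 10 of the naive and 12 of the primed promoters (2.50% and 2.88%), in 1.47% of all and in 1.2% of the genes not called. The naive holders include Crxos, Aspa, Klf8 and Pdgfc, and the primed holders include Acta1, Myl9, Cnn2, Lef1, Elavl4, Meg3 and Zfp36. Acta2, Tagln, Cnn1 and Tpm1, also at least 4-fold higher in primed cytoplasm, were not among the holders. They had no match or no listed promoter. The promoters of Bhmt, Acta1 and Myl9 are printed with the motif in capitals, which starts 75, 73 and 161 bases before the start. A match is a description and not a shown site.
Bhmt (chr13:93637759-93637878, minus strand): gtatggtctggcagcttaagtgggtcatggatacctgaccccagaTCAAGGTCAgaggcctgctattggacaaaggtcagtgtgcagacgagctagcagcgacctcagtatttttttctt
Acta1 (chr8:123894776-123894895, minus strand): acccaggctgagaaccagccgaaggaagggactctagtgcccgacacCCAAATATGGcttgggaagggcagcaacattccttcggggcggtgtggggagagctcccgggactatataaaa
Myl9 (chr2:156775284-156775463, plus strand): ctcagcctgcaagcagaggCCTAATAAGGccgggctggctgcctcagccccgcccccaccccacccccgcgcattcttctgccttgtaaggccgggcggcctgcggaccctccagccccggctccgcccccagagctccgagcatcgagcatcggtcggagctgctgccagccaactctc

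The transcription factors of the naive state were higher in naive cytoplasm almost without exception. Of 14 tested, 13 were called higher in naive and 1 higher in primed cytoplasm, against 22.1% and 21.6% of all genes, and their median was 3.74. Prdm14 (chromosome 1, 13113428 to 13127163), which keeps DNA methylation and FGF signalling low, had 97.6 and 120.2 CPM in naive and 0.964 and 2.45 CPM in primed libraries (log2 fold change 5.95 ± 0.34, adjusted p = 0.000253). Klf4 (chromosome 4, 55527137 to 55532475), a Krüppel-like factor downstream of STAT3, had 218 and 148 CPM in naive and 5.92 and 7.69 CPM in primed libraries (log2 fold change 4.74 ± 0.27, adjusted p = 0.000249). Tfcp2l1 (chromosome 1, 118627923 to 118685168), another STAT3 target, had 373 and 331 CPM in naive and 16.3 and 12.1 CPM in primed libraries (log2 fold change 4.64 ± 0.19, adjusted p = 0.000128). For these genes both naive values lay far above both primed values. Klf2 at 462 and 325 against 18.9 and 22.9 CPM (4.23 ± 0.23) and Tbx3 at 247 and 376 against 10.1 and 10.6 CPM (4.91 ± 0.25), naive before primed, behaved alike. Nr0b1, an orphan nuclear receptor, had 117 and 273 CPM in naive and 7.85 and 5.60 CPM in primed libraries (log2 fold change 4.87 ± 0.48, adjusted p = 0.00108), with naive replicates apart. Differences were smaller for Esrrb and Nanog. Esrrb had 159 and 146 CPM in naive and 17.8 and 19.2 CPM in primed libraries (log2 fold change 3.04 ± 0.14, adjusted p = 0.000155). Nanog had 686 and 745 CPM in naive and 141 and 139 CPM in primed libraries (log2 fold change 2.36 ± 0.11, adjusted p = 0.000167). Zfp42 (Rex1) lay between at 3.51 ± 0.13, and Mybl2 and Sall1 were at 1.90 ± 0.13 and 0.54 ± 0.15. Klf5 was also called, with 226 and 189 against 54.8 and 48.8 CPM, naive before primed (adjusted p = 0.000471). Nr5a2 was low in both states but called at 3.97 ± 0.48. The exception was Gbx2, a homeobox gene placed among LIF targets, which had 11.6 and 9.72 CPM in naive and 44.2 and 47.9 CPM in primed libraries (log2 fold change −2.11 ± 0.18, adjusted p = 0.00073).

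Other genes known for the naive state followed the factors, with 75% of the list higher in naive and 0% in primed cytoplasm. The shares over all genes were 22.1% and 21.6%. Of 20 tested, 15 were higher in naive and 0 in primed cytoplasm (median 2.25), and with 1 library left out the number higher in naive ran from 12 (without primed replicate 1) to 18 (without naive replicate 1). Beside Calcoco2, Jam2, a junctional adhesion molecule, had 572 and 608 CPM in naive and 5.10 and 4.43 CPM in primed libraries (log2 fold change 6.95 ± 0.16, adjusted p = 6.77e-05). Spp1 (osteopontin) had 3265 and 2208 CPM in naive and 66.8 and 66.2 CPM in primed libraries (log2 fold change 5.36 ± 0.23, adjusted p = 0.000145). Pecam1, an adhesion molecule of the inner cell mass, had 364 and 332 CPM in naive and 18.3 and 17.95 CPM in primed libraries (log2 fold change 4.26 ± 0.13, adjusted p = 0.000106). In these genes the states were separated by far more than either pair of replicates. Tcl1, a coactivator of AKT, was at 5.18 ± 0.24. The maternal-effect genes Khdc3 and Ooep, neighbours in one subcortical complex of the egg, were called at 5.17 ± 0.87 and 3.82 ± 0.40, with naive replicates of Khdc3 at 155 and 31.9 CPM. Of the Dppa genes, Dppa5a was called at 1.73 ± 0.18 and Dppa3 (Stella) at 1.15 ± 0.20. Dppa2 and Dppa4, which activate 2-cell genes, were not called, with 115 and 253 against 94.3 and 84.8 CPM (adjusted p = 0.0554) and 72.3 and 92.9 against 98.1 and 99.6 CPM (adjusted p = 0.223), naive before primed. The LIF receptor gene Lifr was not called either (0.52 ± 0.18, adjusted p = 0.0604).

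Core pluripotency genes such as Pou5f1 and Sox2 were expressed in both states and were not equal between them. Pou5f1 (chromosome 17, 35506032 to 35510777) had 674 and 858 CPM in naive and 187 and 202 CPM in primed libraries (log2 fold change 1.97 ± 0.15, adjusted p = 0.000537). Sox2 had 92.1 and 164 CPM in naive and 47.1 and 53.9 CPM in primed libraries (log2 fold change 1.34 ± 0.28, adjusted p = 0.0119). Both were higher in naive cytoplasm without overlap of the groups, though the naive values of Sox2 were further apart than its primed values. Sall4 (0.78 ± 0.11) and Tcf7l1 (1.27 ± 0.18), the TCF factor that represses naive genes, were also higher in naive cytoplasm. Of the core list, 53.8% were higher in naive and 23.1% in primed cytoplasm, beside 22.1% and 21.6% of all genes. The primed share was near that of all genes. The list of 13 held 7 that were higher in naive and 3 that were higher in primed cytoplasm, with a median of 0.68, and the number higher in naive ran from 1 (without primed replicate 1) to 8 (without naive replicate 2) with 1 library left out. The primed ones included Utf1, a chromatin factor, with 52.1 and 115 CPM in naive and 352 and 365 CPM in primed libraries (−2.11 ± 0.35), and Lin28a. Lin28a (chromosome 4, 134003330 to 134019196), whose protein blocks the maturation of let-7 miRNAs, had 2.16 and 0.254 CPM in naive and 66.4 and 69.0 CPM in primed libraries (log2 fold change −5.81 ± 0.59, adjusted p = 0.00116). Tdgf1, the Nodal co-receptor Cripto, was not called (adjusted p = 0.243), with naive replicates of 888 and 252 CPM and primed replicates of 1006 and 1007 CPM.

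Transcription factors of the formative and primed states went the other way, less uniformly. Shares of 57.1% higher in primed and 14.3% higher in naive cytoplasm stand beside 21.6% and 22.1% of all genes. Of 21 tested, 12 were higher in primed and 3 in naive cytoplasm (median −1.84), and with 1 library left out the number higher in primed ran from 9 (without primed replicate 2) to 17 (without naive replicate 2). Otx2 (chromosome 14, 48656781 to 48667644), the homeobox factor that opens formative enhancers, had 29.5 and 30.2 CPM in primed and 5.43 and 4.23 CPM in naive libraries (log2 fold change −2.62 ± 0.23, adjusted p = 0.000729). Pou3f1 (Oct6; chromosome 4, 124657646 to 124660655) had 68.5 and 105 CPM in primed and 2.59 and 7.78 CPM in naive libraries (log2 fold change −4.06 ± 0.49, adjusted p = 0.00202). Both genes were detected in naive cells at a lower level and the groups were apart. Sox11 (21.5 and 18.4 CPM in primed and 0.0863 and 0.423 CPM in naive libraries; −6.21 ± 0.49), Myc (50.8 and 62.7 CPM in primed and 0.259 and 1.10 CPM in naive libraries; −6.35 ± 0.44) and Lef1 (14.6 and 18.9 CPM in primed and 0.345 and 0.676 CPM in naive libraries; −5.00 ± 0.40) were close to 0 in naive cytoplasm. Sox4 was at −3.70 ± 0.29, Hes6 at −3.52 ± 0.14 and Etv1, an ETS factor induced by FGF, at −3.46 ± 0.73. Not every gene of this kind was called: Etv5 had 313 and 573 CPM in naive and 397 and 451 CPM in primed libraries (adjusted p = 0.869), and Etv4, Sox3, Zic2 and Meis2 were not called either. Sall3 (3.37 ± 0.61), Mycn (1.03 ± 0.15) and Tead2 (0.71 ± 0.15) were higher in naive cytoplasm, so Myc and Mycn moved in opposite directions.

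Other genes known for the primed state were almost all higher in primed cytoplasm, 23 of 26 tested against 2 higher in naive (median −3.02). The 23 and 2 genes were 88.5% and 7.69% of the list, beside 21.6% and 22.1% of all genes. The number higher in primed ran from 16 (without primed replicate 1) to 24 (without naive replicate 1 or naive replicate 2) with 1 library left out. Beside Fgf5, the Wnt ligand gene Wnt8a had 35.4 and 37.0 CPM in primed and 0.0863 and 0 CPM in naive libraries (log2 fold change −9.35 ± 0.46, adjusted p = 0.000173). The ephrin receptor gene Epha1 had 113 and 108 CPM in primed and 1.55 and 0.592 CPM in naive libraries (log2 fold change −6.67 ± 0.33, adjusted p = 0.000174). Trh, for thyrotropin-releasing hormone, had 124 and 137 CPM in primed and 8.63 and 0.930 CPM in naive libraries (log2 fold change −4.78 ± 0.74, adjusted p = 0.00442). Naive replicates were near 0 for Wnt8a and Epha1, and those of Trh were apart from each other. The secreted Wnt inhibitors split, with Sfrp2 at −3.52 ± 0.27 and Sfrp1 at 1.88 ± 0.20.

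**Figure D2:**
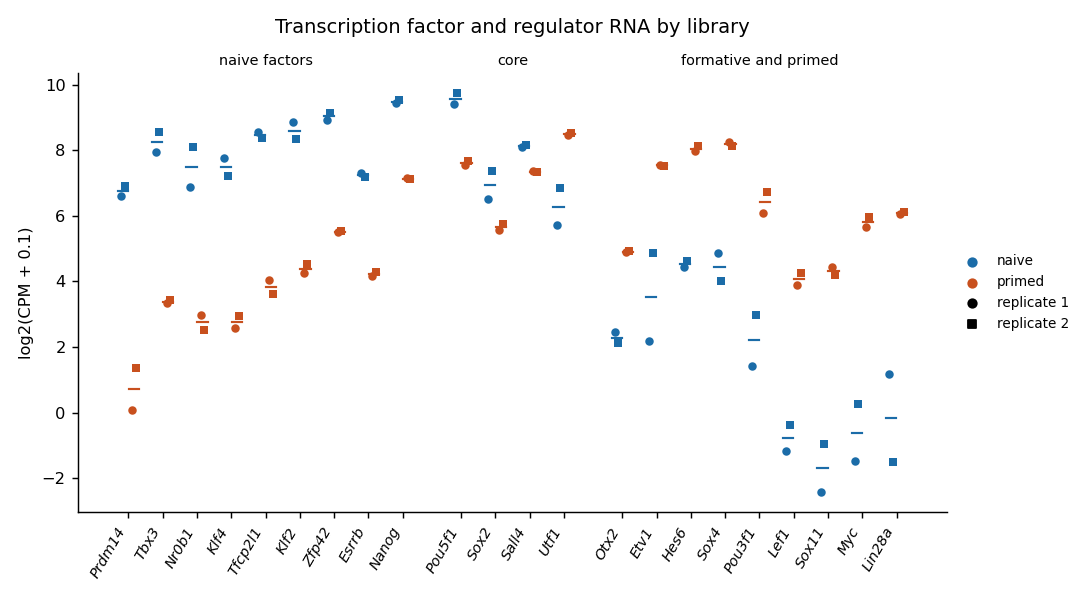
Level of 22 regulator genes in each library, as log2 of CPM plus 0.1, with naive libraries in blue, primed in orange, replicate 1 as circles, replicate 2 as squares and short lines at the mean of the 2 log values. Naive factors on the left lie higher in naive libraries, core genes in the middle are present in both states, and formative and primed genes on the right lie higher in primed libraries, with the naive replicates further apart at Etv1, Pou3f1 and Lin28a. Lin28a, counted in the core list of the text, is drawn with the formative and primed genes.

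LIF was in the naive medium only, and genes of its pathway moved both ways. LIF binds a receptor of Lifr and Il6st (gp130), JAK kinases phosphorylate STAT3, and STAT3 induces Klf4, Tfcp2l1, Socs3 and other genes. Of 22 genes, 8 were higher in naive and 7 in primed cytoplasm, with a median of 0.14 that turned to −0.056 with library totals. These are 36.4% and 31.8% of the list, beside 22.1% and 21.6% of all genes, and with 1 library left out the primed count ran from 3 (without primed replicate 1 or primed replicate 2) to 9 (without naive replicate 1 or naive replicate 2). Stat3 had 214 and 129.6 CPM in naive and 47.5 and 49.4 CPM in primed libraries (log2 fold change 1.83 ± 0.25, adjusted p = 0.00289). Il6st had 168 and 152 CPM in naive and 103 and 107 CPM in primed libraries (log2 fold change 0.61 ± 0.12, adjusted p = 0.0095). Bcl3, a nuclear IκB protein, had 283 and 81.9 CPM in naive and 5.92 and 8.16 CPM in primed libraries (log2 fold change 4.68 ± 0.65, adjusted p = 0.00311). These genes had both naive values above both primed values. Socs3, the feedback inhibitor of STAT3, had 99.98 and 18.1 CPM in naive and 21.2 and 23.1 CPM in primed libraries and was not called (adjusted p = 0.158). Socs2 (−1.71 ± 0.17), Mcl1 (−1.10 ± 0.16), Pim1 (−0.79 ± 0.11) and Pim3 (−0.75 ± 0.15) were higher in primed cytoplasm.

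FGF ligands differed by state. Fgf4 (chromosome 7, 144861386 to 144865245), the ligand ES cells make for themselves, had 379.8 and 355 CPM in naive and 65.0 and 67.5 CPM in primed libraries (log2 fold change 2.47 ± 0.12, adjusted p = 0.000156). Fgf8 had 15.98 and 25.9 CPM in primed and 0 and 0.169 CPM in naive libraries (log2 fold change −7.74 ± 0.66, adjusted p = 0.000717). Fgf17 had 24.2 and 22.03 CPM in primed and 2.33 and 1.35 CPM in naive libraries (log2 fold change −3.64 ± 0.32, adjusted p = 0.00076). So Fgf4 and, at a low level, Fgf3 (3.06 ± 0.44) were higher in naive, and Fgf5, Fgf8 and Fgf17 higher in primed cytoplasm. Of the receptors, Fgfr2 was higher in primed cytoplasm (−2.89 ± 0.38), while Fgfr1 had 250.3 and 137 CPM in naive and 166 and 169.7 CPM in primed libraries and was not called (adjusted p = 0.574). Among the kinases and adaptors downstream, Braf had 174 and 185 CPM in primed and 21.2 and 27.4 CPM in naive libraries (log2 fold change −2.88 ± 0.17, adjusted p = 0.000255). In contrast, Map2k1 (0.86 ± 0.12) and Grb2 (0.84 ± 0.17) were higher in naive cytoplasm. The whole list of 26 held 6 genes higher in naive and 8 in primed cytoplasm, 23.1% and 30.8% of them, beside 22.1% and 21.6% of all genes, so the naive share was near that of all genes. With library totals the counts were 5 and 12, and with 1 library left out they ran from 3 (without primed replicate 1 or primed replicate 2) to 8 (without naive replicate 1 or naive replicate 2) and from 6 (without primed replicate 1 or primed replicate 2) to 14 (without naive replicate 1).

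Genes that respond to ERK, whose kinase MEK was inhibited in the naive medium, were more often called higher in primed than in naive cytoplasm. These shares were 47.4% and 10.5% of those tested, beside 21.6% and 22.1% of all genes. Of 19 tested, 9 were higher in primed and 2 in naive cytoplasm (median −1.50), with the former running from 7 (without primed replicate 2) to 14 (without naive replicate 2) when 1 library was left out. Dusp6 (chromosome 10, 99263231 to 99267489), the phosphatase that dampens ERK, had 239.5 and 270.5 CPM in primed and 1.55 and 7.18 CPM in naive libraries (log2 fold change −5.86 ± 0.56, adjusted p = 0.000983). Dusp4, a related phosphatase, had 31.8 and 32.8 CPM in primed and 0.518 and 1.94 CPM in naive libraries (log2 fold change −4.69 ± 0.48, adjusted p = 0.0012). Spry4, a Sprouty inhibitor of the pathway, had 12.1 and 12.9 CPM in primed and 0 and 0.0845 CPM in naive libraries (log2 fold change −7.82 ± 0.59, adjusted p = 0.00051). The naive values of Dusp6 and Dusp4 were low in both libraries and lower in replicate 1. Spry1 (−3.07 ± 0.36), Il17rd (−3.10 ± 0.20), Spred1 (−2.21 ± 0.40), Spry2 (−1.86 ± 0.60) and Egr1 (−3.38 ± 0.63) were called in the same direction. Fos, Dusp5, Spred2 and Ier3 were not called, and Epha4 (3.53 ± 0.24) and Ier2 (0.68 ± 0.18) were higher in naive cytoplasm.

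Activin, a ligand of the Nodal receptors, was in the primed medium. Nodal targets include the feedback inhibitors Lefty1 and Lefty2. Lefty1 (chromosome 1, 180935022 to 180938401) had 1865 and 1818 CPM in primed and 20.2 and 9.89 CPM in naive libraries (log2 fold change −6.94 ± 0.36, adjusted p = 0.0002), a mean 122 times as high. Lefty2 had 234 and 224 CPM in primed and 50.4 and 20.5 CPM in naive libraries (log2 fold change −2.69 ± 0.39, adjusted p = 0.00371). At both the primed replicates were close together and the naive ones apart. Nodal itself differed less, with 341 and 319 CPM in primed and 178 and 187 CPM in naive libraries (log2 fold change −0.85 ± 0.11, adjusted p = 0.00242). The receptors Acvr2b (−1.13 ± 0.13) and Acvr2a (−1.27 ± 0.21) and the effector Smad3 (−0.75 ± 0.22) were higher in primed cytoplasm, while Smad2 (0.12 ± 0.14) and Foxh1 (−0.49 ± 0.23) were not called. The inhibin subunit genes, which encode the activins, went opposite ways: Inhbb had 20.7 and 29.2 CPM in naive and 0.826 and 0.700 CPM in primed libraries (log2 fold change 5.02 ± 0.35, adjusted p = 0.000403), and Inhba had 0 reads in both naive libraries and was at least 18-fold higher in primed cytoplasm. Pcsk6, a protease that processes Nodal, was higher in naive cytoplasm (4.07 ± 0.42). Of the Nodal list, 41.7% were higher in primed and 16.7% in naive cytoplasm, beside 21.6% and 22.1% of all genes. Over 24 genes, 10 were higher in primed and 4 in naive cytoplasm (median −0.49), the latter running from 2 (without primed replicate 1) to 6 (without naive replicate 1 or naive replicate 2) and the former from 7 (without primed replicate 1) to 13 (without naive replicate 1) with 1 library left out.

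The naive medium held a GSK3 inhibitor, which activates beta-catenin, and genes of the Wnt pathway split by member. Of 27 tested, 7 were higher in naive and 12 in primed cytoplasm (median −0.63), and with 1 library left out the naive count ran from 2 (without primed replicate 1) to 8 (without naive replicate 1) and the primed count no lower than 8 (without primed replicate 1). The 7 and 12 genes were 25.9% and 44.4% of the list, beside 22.1% and 21.6% of all genes, so the naive share was near that of all genes. Of the targets, Cdx1 was described above and Notum, a secreted Wnt inhibitor, had 37.8 and 54.3 CPM in naive and 1.38 and 1.63 CPM in primed libraries (log2 fold change 4.92 ± 0.30, adjusted p = 0.000303). Axin2, the most widely used target, had 6.12 and 4.39 CPM in naive and 6.06 and 5.25 CPM in primed libraries and was not called (adjusted p = 0.813), and Sp5 (−0.94 ± 0.56) and Ctnnb1 (−0.32 ± 0.10, adjusted p = 0.0526) were not called. Lef1, Ccnd1 (−1.83 ± 0.17) and T (Brachyury, −3.50 ± 0.70) were higher in primed cytoplasm. Among ligands Wnt3 (10.2 and 10.4 CPM in primed and 1.47 and 1.52 CPM in naive libraries; −2.77 ± 0.30) was higher in primed cytoplasm, as Wnt8a was, and Wnt3a in naive cytoplasm (5.29 ± 1.14). Of the receptors Fzd2 had 85.7 and 86.2 CPM in primed and 7.33 and 7.78 CPM in naive libraries (log2 fold change −3.51 ± 0.15, adjusted p = 0.000145). Fzd7 had 107 and 115 CPM in primed and 27.3 and 23.9 CPM in naive libraries (log2 fold change −2.11 ± 0.14, adjusted p = 0.000377). The groups did not overlap at either gene, whereas Fzd5 (1.09 ± 0.25) was higher in naive cytoplasm.

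Of 20 genes of BMP signalling, 12 were not called, 6 were higher in primed and 2 in naive cytoplasm (median −0.28). The primed share of 30% stands beside 21.6% of all genes, and its count ran from 3 (without primed replicate 1) to 10 (without naive replicate 2) and the naive count from 0 (without primed replicate 1 or primed replicate 2) to 5 (without naive replicate 1) with 1 library left out. The target Id1 had 7.99 and 6.30 CPM in primed and 0.863 and 0.930 CPM in naive libraries (log2 fold change −2.97 ± 0.38, adjusted p = 0.0023), but Id2 and Id3 were not called (adjusted p = 0.246 and 0.585). Bmp4 was not called, with 2.24 and 2.96 against 4.96 and 5.01 CPM, naive before primed (adjusted p = 0.0701), and the receptor gene Bmpr1a (−1.04 ± 0.14) and Smad5 (−1.47 ± 0.16) were higher in primed cytoplasm.

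**Figure D3:**
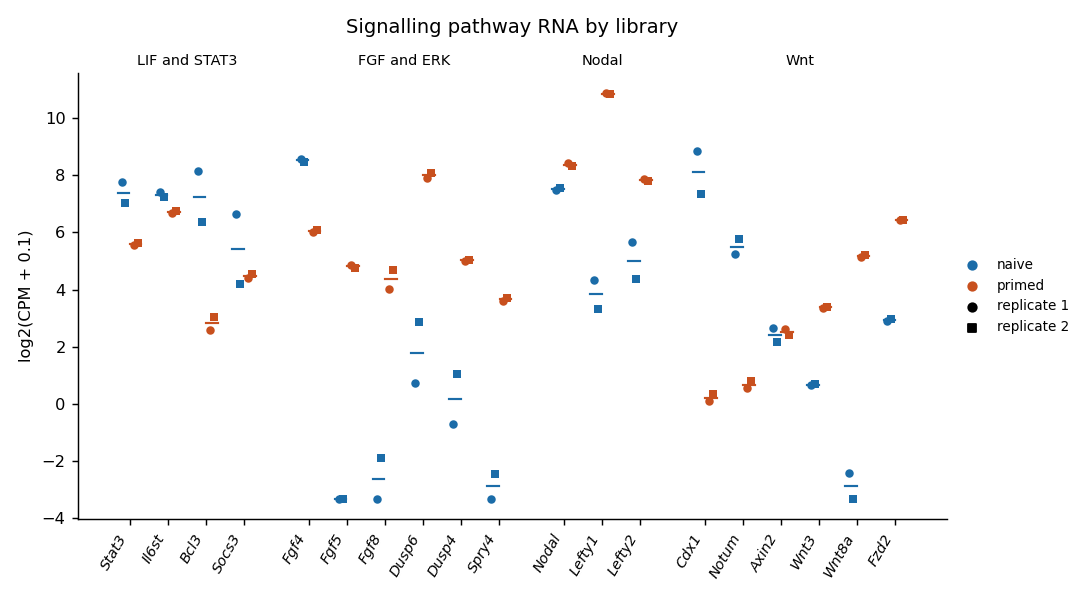
Level of 19 genes of signalling pathways in each library, as log2 of CPM plus 0.1, naive libraries in blue and primed in orange, with circles for replicate 1, squares for replicate 2 and lines at the mean of the 2 log values. Lefty1, Dusp6, Fgf5 and Wnt8a are far higher in the primed libraries, Bcl3, Fgf4 and Cdx1 higher in the naive ones, and the values of Socs3 and Axin2 overlap between the states.

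Of 28 genes of adhesion and of the epithelial and mesenchymal states, 15 were higher in primed and 5 in naive cytoplasm (median −1.64), the former running from 12 (without primed replicate 1 or primed replicate 2) to 19 (without naive replicate 1) with 1 library left out. Epcam (chromosome 17, 87635979 to 87651127), the epithelial adhesion molecule, had 784 and 719.9 CPM in primed and 106 and 65.1 CPM in naive libraries (log2 fold change −3.14 ± 0.25, adjusted p = 0.000559). Keratin 18 (Krt18) had 178 and 169 CPM in primed and 7.68 and 4.48 CPM in naive libraries (log2 fold change −4.83 ± 0.26, adjusted p = 0.000214). Its partner Krt8 had 121 and 88.7 CPM in primed and 24.2 and 6.08 CPM in naive libraries (log2 fold change −2.79 ± 0.58, adjusted p = 0.0118). The tight junction genes Cldn6 (−3.32 ± 0.28), Cldn7 (−2.82 ± 0.40) and Cldn3 (−1.75 ± 0.15) were higher in primed cytoplasm too, as was the placental cadherin Cdh3 (−3.08 ± 0.14), and the epithelial splicing factor Esrp1 had 36.6 and 35.8 CPM in primed and 0.690 and 0.254 CPM in naive libraries (log2 fold change −6.23 ± 0.37, adjusted p = 0.000273). Cdh1, E-cadherin, was expressed in both states at 2215 and 1089 CPM in naive and 1262 and 1175 CPM in primed libraries and was not called (adjusted p = 0.291). Mesenchymal genes did not move as one: N-cadherin Cdh2 (−2.92 ± 0.39), Zeb2 (−4.90 ± 0.59) and Snai2 (−2.52 ± 0.37) were higher in primed cytoplasm, Zeb1 (1.47 ± 0.36) and fibronectin higher in naive cytoplasm, and Vim was not called (−0.13 ± 0.21). Over the whole adhesion list, 53.6% were higher in primed and 17.9% in naive cytoplasm, beside 21.6% and 22.1% of all genes.

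Matrix genes exchanged members between the states: of 26 tested, 11 were higher in naive and 11 in primed cytoplasm, 42.3% in each direction beside 22.1% and 21.6% of all genes. Without primed replicate 1 or primed replicate 2 the counts were 7 and 7. Fibronectin (Fn1, chromosome 1, 71585473 to 71653280) had 4667 and 4392 CPM in naive and 578 and 580.4 CPM in primed libraries (log2 fold change 2.97 ± 0.11, adjusted p = 0.000111). Nidogen 1 (Nid1) had 1033 and 962 CPM in naive and 66.1 and 59.2 CPM in primed libraries (log2 fold change 3.99 ± 0.13, adjusted p = 0.000106). Of the basement membrane genes, type IV collagen Col4a1 had 214 and 192 CPM in primed and 30.0 and 29.8 CPM in naive libraries (log2 fold change −2.76 ± 0.13, adjusted p = 0.000156). Its head-to-head neighbour Col4a2 had 137 and 125 CPM in primed and 38.9 and 30.8 CPM in naive libraries (log2 fold change −1.91 ± 0.16, adjusted p = 0.000698). Laminin chains split as well, with Lamc1 (1.30 ± 0.16) and Lama1 (1.11 ± 0.33) higher in naive and Lamb1 (−2.38 ± 0.31) and Lama5 (−1.44 ± 0.14) higher in primed cytoplasm. Integrin alpha 5 (Itga5), the fibronectin receptor chain, was higher in naive cytoplasm (1.87 ± 0.21), and Itgb1 in primed cytoplasm (−1.06 ± 0.25).

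The cytoskeleton list of 32 held 9 genes higher in naive and 13 in primed cytoplasm (median −0.26), 28.1% and 40.6% of it beside 22.1% and 21.6% of all genes. These counts were 6 and 15 with library totals and 5 and 14 with the GC and length trend, described below, removed, and with 1 library left out they ran from 2 (without primed replicate 1) to 11 (without naive replicate 1 or naive replicate 2) and from 7 (without primed replicate 1) to 17 (without naive replicate 1). The list was led on the primed side by Myl9, Tagln, Cnn1 and Cnn2. Myl9, a myosin light chain, had 65.6 and 60.4 CPM in primed and 0.345 and 0.676 CPM in naive libraries (log2 fold change −6.91 ± 0.29, adjusted p = 0.000133). Tagln (SM22), an actin-binding protein of smooth muscle, had 50.4 and 46.4 CPM in primed and 1.21 and 0.676 CPM in naive libraries (log2 fold change −5.67 ± 0.29, adjusted p = 0.000191). Calponin 1 (Cnn1) had 12.7 and 10.4 CPM in primed and 0.345 and 0.0845 CPM in naive libraries (log2 fold change −5.67 ± 0.52, adjusted p = 0.000887). Like Acta1 and Acta2, they were at or near 0 in both naive libraries. Tpm1 (−2.96 ± 0.16), Cnn2 (−3.46 ± 0.24), Tpm2 (−1.78 ± 0.26), Flna (−1.18 ± 0.17) and Actn4 (−0.86 ± 0.12) were present in both states and higher in primed cytoplasm. The cytoplasmic actins Actb (−0.11 ± 0.11, adjusted p = 0.455) and Actg1 (0.081 ± 0.11, adjusted p = 0.577) were not called, while Cnn3 (1.25 ± 0.11), Tubb2b (1.43 ± 0.12) and Tagln2 (1.04 ± 0.31) were higher in naive cytoplasm.

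Of 20 genes that set, keep or remove DNA methylation, 6 were higher in each state and 8 were not called, 30% in each direction beside 22.1% and 21.6% of all genes. With 1 library left out the naive count ran from 1 (without primed replicate 1) to 8 (without naive replicate 1) and the primed count from 3 (without primed replicate 1) to 7 (without naive replicate 1 or naive replicate 2). The de novo methyltransferases were higher in primed cytoplasm: Dnmt3b (chromosome 2, 153649411 to 153687730) had 446 and 498 CPM in primed and 39.8 and 72.8 CPM in naive libraries (log2 fold change −3.07 ± 0.29, adjusted p = 0.000949). Dnmt3a had 354 and 383 CPM in primed and 57.2 and 101 CPM in naive libraries (log2 fold change −2.22 ± 0.27, adjusted p = 0.002). Their cofactor Dnmt3l had 74.0 and 73.6 CPM in primed and 3.11 and 7.35 CPM in naive libraries (log2 fold change −3.81 ± 0.37, adjusted p = 0.00102). The maintenance enzyme Dnmt1 had 698 and 641 CPM in naive and 378 and 397 CPM in primed libraries (log2 fold change 0.79 ± 0.11, adjusted p = 0.00313). Its guide Uhrf1 had 1071 and 770.0 CPM in naive and 363 and 414 CPM in primed libraries (log2 fold change 1.24 ± 0.18, adjusted p = 0.00363). Dnmt1 and Uhrf1 were both higher in naive cytoplasm, by less than the de novo enzymes differed in the other direction. Of the demethylases, Tet2 was higher in naive cytoplasm (1.67 ± 0.26), and Tet1 (−0.43 ± 0.14, adjusted p = 0.0538) and Tet3 were not called. Zfp57, which protects imprints, was at 1.82 ± 0.34, and Hells, a remodelling ATPase needed for methylation, at −0.80 ± 0.11, but the latter became 0.057 with the trend removed.

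Imprinted genes, which are expressed from 1 parental allele, were more often higher in primed than in naive cytoplasm: 18 of 33 tested against 2 (median −1.20). The 18 and 2 genes were 54.5% and 6.06% of those tested, beside 21.6% and 22.1% of all genes. With the trend on GC content and length removed, the list held 4 higher in naive, 13 higher in primed and a median of −0.93, and with 1 library left out the number higher in primed ran from 10 (without primed replicate 1) to 19 (without naive replicate 1 or naive replicate 2). Nnat (neuronatin) had 23.6 and 23.2 CPM in primed and 0.345 and 0.254 CPM in naive libraries (log2 fold change −6.23 ± 0.32, adjusted p = 0.0002). Peg10, derived from a retrotransposon, had 37.2 and 34.2 CPM in primed and 3.11 and 0.761 CPM in naive libraries (log2 fold change −4.20 ± 0.52, adjusted p = 0.00218). Mest had 56.7 and 49.9 CPM in primed and 6.38 and 3.47 CPM in naive libraries (log2 fold change −3.43 ± 0.30, adjusted p = 0.000781). The cyclin-dependent kinase inhibitor Cdkn1c was at −3.04 ± 0.40, the maternally expressed RNA Meg3 at −2.67 ± 0.36, Peg3 at −2.41 ± 0.15 and the growth factor receptor adaptor Grb10 at −1.87 ± 0.12. Igf2 was low in both states (4.96 and 4.90 CPM in primed and 0.690 and 0.254 CPM in naive libraries; −3.35 ± 0.53), and H19 did not reach the read minimum. Snrpn (0.0002 ± 0.16) and Igf2r (0.33 ± 0.13) were not called, and Plagl1 was higher in naive cytoplasm (2.77 ± 0.18).

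Polycomb genes also went both ways, 9 higher in naive and 8 in primed cytoplasm of 25 (median 0.30), 36% and 32% of the list beside 22.1% and 21.6% of all genes. They were 7 and 8 with library totals and 10 and 5 with the GC and length trend removed, and with 1 library left out they ran from 4 (without primed replicate 1 or primed replicate 2) to 11 (without naive replicate 1 or naive replicate 2) and from 0 (without primed replicate 2) to 8 (without naive replicate 1 or naive replicate 2). In complex 2, Epop (1.98 ± 0.12), Aebp2 (1.93 ± 0.19), Jarid2 (1.15 ± 0.15), Eed (0.81 ± 0.12) and Suz12 (0.61 ± 0.17) were higher in naive cytoplasm, the catalytic Ezh2 was not called (0.41 ± 0.17), and its paralog Ezh1 (−0.90 ± 0.14) and the accessory Phf19 (−2.14 ± 0.31) were higher in primed cytoplasm. In complex 1, Cbx7 (−0.62 ± 0.14) and Bmi1 (−1.16 ± 0.22) were higher in primed cytoplasm, and Rnf2 and Cbx2 were not called.

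Nuclear-encoded genes of the respiratory chain and ATP synthase were higher in naive cytoplasm as a group: 33 of 46 tested, 71.7% against 22.1% of all genes, with 0 higher in primed cytoplasm and a median of 0.69, against 0.0033 over all genes. In 45 of the 46 the fold change was above 0. The size was modest for most: Atp5b, the catalytic subunit of ATP synthase, had 4935 and 4941 CPM in naive and 2883 and 2975 CPM in primed libraries (log2 fold change 0.75 ± 0.10, adjusted p = 0.00293), and Sdhb (1.10 ± 0.12) and Uqcrc1 (0.83 ± 0.11) stood for complexes II and III. Subunits of cytochrome c oxidase led the list. Cox5a had 551 and 619.6 CPM in naive and 128 and 114 CPM in primed libraries (log2 fold change 2.28 ± 0.13, adjusted p = 0.000249). Cox6a1 had 1051 and 1120.2 CPM in naive and 301 and 266 CPM in primed libraries (log2 fold change 1.94 ± 0.12, adjusted p = 0.000304). Cox7a1 had 33.2 and 45.0 CPM in naive and 6.34 and 6.53 CPM in primed libraries (log2 fold change 2.60 ± 0.23, adjusted p = 0.000817). The count was 28 with library totals in place of TMM and 31 with the GC and length trend removed (median 0.52), and with 1 library left out it ran from 9 (without primed replicate 2) to 42 (without naive replicate 1).

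Genes of threonine, serine, glycine and folate metabolism were higher in naive cytoplasm in 12 of 19 cases and in primed cytoplasm in 2 (median 0.79), and the naive count ran from 7 (without primed replicate 1 or primed replicate 2) to 15 (without naive replicate 2) with 1 library left out. Tdh (chromosome 14, 63492347 to 63509092), threonine dehydrogenase, with which mouse ES cells break down threonine, had 469 and 499 CPM in naive and 12.1 and 10.8 CPM in primed libraries (log2 fold change 5.40 ± 0.14, adjusted p = 0.000106). Gcat, the next enzyme in that path, had 373 and 257 CPM in naive and 111 and 105 CPM in primed libraries (log2 fold change 1.55 ± 0.19, adjusted p = 0.00222). Shmt2, the mitochondrial serine hydroxymethyltransferase, had 713 and 516 CPM in naive and 186 and 203 CPM in primed libraries (log2 fold change 1.66 ± 0.18, adjusted p = 0.00139). Glycine decarboxylase Gldc was an exception with 523 and 563 CPM in primed and 140.3 and 231 CPM in naive libraries (log2 fold change −1.55 ± 0.24, adjusted p = 0.00418), and the glycine cleavage gene Amt was at 2.09 ± 0.30. Over the whole list, 63.2% were higher in naive and 10.5% in primed cytoplasm, beside 22.1% and 21.6% of all genes.

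Glycolytic genes did not move as one. Of 23, 6 were higher in naive and 9 in primed cytoplasm (median −0.31), 26.1% and 39.1% beside 22.1% and 21.6% of all genes. The counts were 4 and 12 with library totals, and with 1 library left out they ran from 2 (without primed replicate 1) to 8 (without naive replicate 2) and from 4 (without primed replicate 1 or primed replicate 2) to 13 (without naive replicate 1). Isoforms of the same step were exchanged: phosphofructokinase Pfkp had 455 and 548 CPM in naive and 37.7 and 51.8 CPM in primed libraries (log2 fold change 3.48 ± 0.20, adjusted p = 0.000252). Pfkl had 366 and 289.9 CPM in naive and 779 and 897 CPM in primed libraries (log2 fold change −1.35 ± 0.15, adjusted p = 0.00169). The glucose transporter Slc2a1 (Glut1) had 424 and 258 CPM in naive and 1221 and 1161 CPM in primed libraries (log2 fold change −1.81 ± 0.24, adjusted p = 0.00256). Slc2a3 (Glut3) had 4435 and 3309 CPM in naive and 2735 and 2602 CPM in primed libraries (log2 fold change 0.54 ± 0.16, adjusted p = 0.0384), and with library totals it was at 0.33 and not called (edgeR, adjusted p = 0.0951). The hexokinases Hk1 (1.79 ± 0.22) and Hk2 (1.57 ± 0.29) were higher in naive cytoplasm. Pdk1, a pyruvate dehydrogenase kinase, had 313 and 327 CPM in primed and 45.7 and 33.7 CPM in naive libraries (log2 fold change −3.01 ± 0.18, adjusted p = 0.000265). The lactate exporter Slc16a3 had 179 and 185 CPM in primed and 62.1 and 32.8 CPM in naive libraries (log2 fold change −1.94 ± 0.29, adjusted p = 0.004). Both were higher in primed cytoplasm without overlap. Ldha (−0.11 ± 0.13), Aldoa (0.24 ± 0.17) and Pkm (−0.31 ± 0.11) were not called. In cholesterol synthesis, 7 of 24 genes were higher in naive and 4 in primed cytoplasm (6 and 7 with library totals), with Ebp at 2.31 ± 0.20. The 7 and 4 genes were 29.2% and 16.7% of the list, beside 22.1% and 21.6% of all genes. With 1 library left out the naive count ran from 2 (without primed replicate 1 or primed replicate 2) to 11 (without naive replicate 2) and the primed count from 1 (without primed replicate 1 or primed replicate 2) to 9 (without naive replicate 1).

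**Figure D4:**
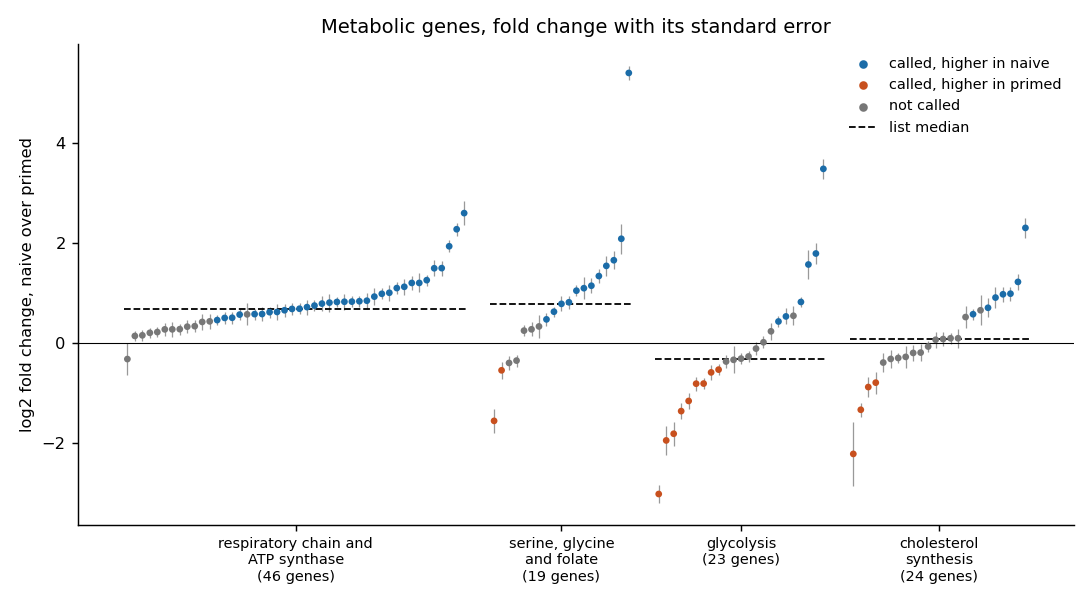
Log2 fold change, naive over primed, of each tested gene of 4 metabolic lists, sorted within the list, with bars for the standard error, a dashed line at the list's median and colour for the direction called. The respiratory chain list lies almost wholly above 0 (median 0.69), the serine, glycine and folate list mostly above it, with Tdh on top, and the glycolysis and cholesterol lists lie on both sides.

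Markers of other cell types were measured to see what else the cultures may hold. The 20 primitive endoderm markers tested (of 22) included 12 higher in primed and 3 in naive cytoplasm, the former running from 7 (without primed replicate 1 or primed replicate 2) to 13 (without naive replicate 2) with 1 library left out. Cubn (cubilin) had 52.9 and 39.3 CPM in primed and 0.0863 and 0.0845 CPM in naive libraries (log2 fold change −8.87 ± 0.39, adjusted p = 0.000145). Its endocytic partner Lrp2 (megalin) had 390.5 and 375 CPM in primed and 8.97 and 6.25 CPM in naive libraries (log2 fold change −5.65 ± 0.20, adjusted p = 0.000106). The defining factors were low: Gata6 had 3.58 and 4.66 CPM in primed and 1.38 and 0.423 CPM in naive libraries (−2.19 ± 0.59), Sox7 4.55 and 3.03 CPM in primed and 0.690 and 0 CPM in naive libraries (−3.41 ± 0.95), and Gata4 and Sox17 were not called. The summed level of the list, to which Apoe, Lamc1 and Sparc add in both states, was 4263 and 3900.2 CPM in naive and 3901 and 3672 CPM in primed libraries, with no clear gap between the states. The 12 and 3 called markers were 60% and 15% of those tested, beside 21.6% and 22.1% of all genes. The part of endoderm cells in the primed values was not tested.

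Mesendoderm markers had few reads. Of 24 tested (of 27), 11 were higher in primed and 3 in naive cytoplasm, and other than Cdx1 no called gene of the list reached 30 CPM in any library. The 11 and 3 genes were 45.8% and 12.5% of those tested, beside 21.6% and 22.1% of all genes. The counts ran from 7 (without primed replicate 1) to 12 (without naive replicate 1 or naive replicate 2) and from 2 (without primed replicate 2) to 6 (without naive replicate 2) with 1 library left out. T had 1.65 and 1.52 CPM in primed and 0.173 and 0.0845 CPM in naive libraries, Mixl1 2.34 and 1.75 CPM in primed and 0.431 and 0.676 CPM in naive libraries and Foxa2 2.34 and 2.91 CPM in primed and 0 and 0 CPM in naive libraries, all called, though Mixl1 was not with DESeq2 (adjusted p = 0.12) or in several other alternatives, and Eomes had 6.47 and 7.93 CPM in primed and 9.58 and 8.54 CPM in naive libraries and was not called. Cer1, a secreted Nodal inhibitor, was at least 28-fold higher in primed cytoplasm. The summed level of the list was 533 and 238 CPM in naive and 116 and 122 CPM in primed libraries, of which most in the naive libraries was Cdx1. In the neuroectoderm list, 6 of 15 tested (of 23) were higher in primed and 3 in naive cytoplasm, the latter falling to 0 without primed replicate 1. Sox1 had 3.99 and 5.48 CPM in primed and 0.690 and 0.254 CPM in naive libraries (−3.30 ± 0.56) and Pax6 8.68 and 12.4 CPM in primed and 0.518 and 1.18 CPM in naive libraries (−3.61 ± 0.47), and Zic1 and Pou3f2 had 0 reads in all 4 libraries. The summed level of that list was 113 and 105 CPM in naive and 103 and 105 CPM in primed libraries. Its 6 and 3 called genes were 40% and 20% of those tested, beside 21.6% and 22.1% of all genes. The naive share was near that of all genes.

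Of 14 fibroblast markers tested (of 21), 6 were higher in primed (4 without primed replicate 1) and 2 in naive cytoplasm, but Lum, Postn, Prrx1 and Fap had 0 reads in all 4 libraries and Col1a1 had 3.99 and 2.56 CPM in primed and 1.04 and 1.44 CPM in naive libraries. The 6 and 2 genes were 42.9% and 14.3% of those tested, beside 21.6% and 22.1% of all genes. The primed ones were led by Acta2, Tagln and Col1a2, and by Mmp2, a gelatinase, with 124 and 123 CPM in primed and 14.6 and 17.5 CPM in naive libraries (−2.94 ± 0.15). Trophoblast markers were called for 4 naive (2 without primed replicate 1 and 7 without naive replicate 1) and 1 primed genes of 14, Tfap2c (1.94 ± 0.24) and Gata2 (3.22 ± 0.62) among the former, while Cdx2, Elf5 and Prl3d1 did not reach the read minimum. The 4 and 1 trophoblast genes were 28.6% and 7.14% of those tested, beside 22.1% and 21.6% of all genes. The summed level was 356 and 328 CPM in naive and 613 and 569.9 CPM in primed libraries for the fibroblast and 371 and 276 CPM in naive and 206 and 191 CPM in primed libraries for the trophoblast list. The part of such cells in the values of other genes was not tested.

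Genes of the 2-cell-like state, which appear in rare cells of ES cultures, were higher in primed than in naive cytoplasm where they were called, 7 of 19 against 1. The 7 and 1 genes were 36.8% and 5.26% of those tested, beside 21.6% and 22.1% of all genes. The summed level of the list was 379 and 903 CPM in naive and 1322 and 988 CPM in primed libraries, so naive replicate 1 lay below the other libraries. The number higher in primed ran from 2 (without primed replicate 1) to 17 (without naive replicate 2) with 1 library left out. Usp17lb had 128 and 95.5 CPM in primed and 17.7 and 30.0 CPM in naive libraries (log2 fold change −2.23 ± 0.29, adjusted p = 0.00243). Zscan4d had 171 and 113 CPM in primed and 36.7 and 72.5 CPM in naive libraries (log2 fold change −1.38 ± 0.35, adjusted p = 0.0234), while Zscan4c and Zscan4f were not called (adjusted p = 0.329 and 0.217). The Zscan4 and Usp17l genes are near-identical copies whose reads the counting may split between them, so their separate values are uncertain. The single gene higher in naive cytoplasm, Pramel6, had 0 reads in both primed libraries and was at least 17-fold higher.

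Of 29 germline genes tested, 8 were higher in naive and 8 in primed cytoplasm, 27.6% in each direction, near the 22.1% and 21.6% of all genes. With 1 library left out the naive count ran from 4 (without primed replicate 1 or primed replicate 2) to 12 (without naive replicate 1) and the primed count from 4 (without primed replicate 2) to 13 (without naive replicate 2). Ddx4, the germ cell helicase, had 71.6 and 80.4 CPM in primed and 33.4 and 28.8 CPM in naive libraries (log2 fold change −1.29 ± 0.15, adjusted p = 0.00196), and the cohesin gene Smc1b (−2.97 ± 0.41) and synaptonemal complex genes Sycp1 (−1.78 ± 0.30) and Sycp2 (−3.70 ± 0.44) were also higher in primed cytoplasm. On the naive side were Tex19.1 (1.43 ± 0.16), Tuba3a (3.03 ± 0.36) and Rpl10l (2.95 ± 0.29). Dazl had naive values of 25.02 and 68.0 CPM and was not called (adjusted p = 0.0509).

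Trp53, the gene of p53, and several of its targets differed in opposite directions. Trp53 had 439.9 and 495 CPM in naive and 150.1 and 144 CPM in primed libraries (log2 fold change 1.67 ± 0.12, adjusted p = 0.000425). The cell cycle inhibitor Cdkn1a had 188 and 133 CPM in naive and 61.4 and 60.3 CPM in primed libraries (log2 fold change 1.40 ± 0.19, adjusted p = 0.00274). The pro-apoptotic Pmaip1 (Noxa) had 149.7 and 139.9 CPM in primed and 13.4 and 21.9 CPM in naive libraries (log2 fold change −3.04 ± 0.25, adjusted p = 0.000617). Ccng1 had 585 and 544 CPM in primed and 112 and 192 CPM in naive libraries (log2 fold change −1.89 ± 0.25, adjusted p = 0.00272). Trp53inp1 had 225 and 197 CPM in primed and 35.1 and 71.4 CPM in naive libraries (log2 fold change −1.98 ± 0.32, adjusted p = 0.00516). Thus the list of 18 had 5 genes higher in naive and 6 in primed cytoplasm (7 and 10 at most with 1 library left out, without naive replicate 1 and without naive replicate 2), and Mdm2 was not called (−0.17 ± 0.16). The 5 and 6 genes were 27.8% and 33.3% of the p53 list, beside 22.1% and 21.6% of all genes. In the immediate early and stress list of 24, 9 genes were higher in naive and 7 in primed cytoplasm, 37.5% and 29.2% beside 22.1% and 21.6% of all genes. The counts were 7 and 9 with the GC and length trend removed, and with 1 library left out they ran from 4 (without primed replicate 1) to 12 (without naive replicate 2) and from 3 (without primed replicate 1 or primed replicate 2) to 9 (without naive replicate 1 or naive replicate 2). Of the list, Asns was at 2.07 ± 0.14, Trib3 at 1.96 ± 0.32 and their activator Atf4 at 1.04 ± 0.13, and the metallothioneins were at 2.07 ± 0.25 (Mt1) and 2.50 ± 0.38 (Mt2). The immediate early factor Jun had 58.5 and 54.7 CPM in primed and 3.62 and 7.78 CPM in naive libraries (log2 fold change −3.31 ± 0.35, adjusted p = 0.00128). D-type cyclins were exchanged: Ccnd3 had 645 and 609 CPM in naive and 105 and 111 CPM in primed libraries (log2 fold change 2.54 ± 0.11, adjusted p = 0.000154), and Ccnd1 (−1.83 ± 0.17), Ccnd2 (−2.97 ± 0.72) and their kinase Cdk6 (−1.72 ± 0.20) were higher in primed cytoplasm. Cdk1 (0.11 ± 0.13) and Ccne1 (0.074 ± 0.14) were not called. Of the cell cycle list, 21.4% were higher in naive and 32.1% in primed cytoplasm, beside 22.1% and 21.6% of all genes. The naive share was thus near that of all genes. In the cell cycle list of 28, 6 genes were higher in naive and 9 in primed cytoplasm, and 8 and 7 with the trend removed, and the primed count ran from 3 (without primed replicate 1 or primed replicate 2) to 12 (without naive replicate 2) with 1 library left out. Of 9 replication-dependent histone genes tested, 2 were higher in primed and 0 in naive cytoplasm, and the calls changed with the library left out. The 2 genes were 22.2% of the histone list, near the 21.6% of all genes.

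In the LIN28 and miRNA list of 24 genes, 7 were higher in primed and 3 in naive cytoplasm, 29.2% and 12.5% of the list beside 21.6% and 22.1% of all genes. They were 10 and 1 with library totals, and with 1 library left out the primed count ran from 4 (without primed replicate 1 or primed replicate 2) to 11 (without naive replicate 1) and the naive count from 0 (without primed replicate 1) to 6 (without naive replicate 2). Lin28b, the paralog of Lin28a, had 98.2 and 93.4 CPM in primed and 3.11 and 3.38 CPM in naive libraries (log2 fold change −4.88 ± 0.17, adjusted p = 0.000106). Hmga2, a let-7 target, had 17.6 and 18.2 CPM in primed and 1.04 and 3.97 CPM in naive libraries (log2 fold change −2.83 ± 0.54, adjusted p = 0.00912). Tut4, the uridylyltransferase that works with LIN28, had 195 and 186 CPM in primed and 42.3 and 63.0 CPM in naive libraries (log2 fold change −1.86 ± 0.20, adjusted p = 0.0015). Dicer1, Drosha and Dgcr8 were not called, and Ago2 was higher in naive cytoplasm by 0.56 ± 0.15. Of 19 P-body factor genes, 4 were higher in naive and 3 in primed cytoplasm, but 2 and 3 with library totals and 3 and 0 with the trend removed, and both counts were 0 without primed replicate 1 or primed replicate 2. The 4 and 3 genes were 21.1% and 15.8% of the P-body list, beside 22.1% and 21.6% of all genes. Neither share was above that of all genes. Lsm14a, of which all cells carried a tagged copy, had 79.4 and 82.8 CPM in naive and 85.7 and 93.5 CPM in primed libraries and was not called (adjusted p = 0.383). Ddx6 (−0.91 ± 0.27), Xrn1 (−0.73 ± 0.17) and Dcp1a (−0.45 ± 0.13) were higher in primed cytoplasm, but none of them was called with the GC and length trend removed, and Xrn1 then had 0.02.

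Most RNAs that stay in the nucleus were higher in primed cytoplasm, 80% of those tested against 10% higher in naive cytoplasm. The shares over all genes were 21.6% and 22.1%. Of 10 tested, 8 were higher in primed and 1 in naive cytoplasm (median −1.87), and the former ran from 5 (without primed replicate 1) to 9 (without naive replicate 2) with 1 library left out. With the GC and length trend removed the list held 1 higher in naive, 6 higher in primed and a median of −1.34. Malat1 had 870.5 and 654 CPM in primed and 171 and 255 CPM in naive libraries (log2 fold change −1.84 ± 0.23, adjusted p = 0.00236). Kcnq1ot1 had 15.2 and 14.9 CPM in primed and 1.64 and 1.69 CPM in naive libraries (log2 fold change −3.17 ± 0.27, adjusted p = 0.000737). Neat1 had 22.6 and 19.4 CPM in naive and 9.92 and 8.28 CPM in primed libraries (log2 fold change 1.21 ± 0.22, adjusted p = 0.0078). The summed level of the list was 377 and 430.4 CPM in naive and 1294 and 1094 CPM in primed libraries, and the part of carried-over nuclear RNA in the values of other genes was not tested. The ribosomal RNA precursor Rn45s, the gene with the highest CPM of those called higher in primed cytoplasm, had 8172 and 6814 CPM in primed and 3614 and 3014 CPM in naive libraries (log2 fold change −1.18 ± 0.15, adjusted p = 0.00233).

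Fold change varied with the base composition and length of the transcripts. Over 10307 genes of at least 10 CPM in either state, the log2 fold change had a Spearman correlation of 0.30 with GC content and of −0.22 with the length of the longest transcript, a description across genes that share the 4 libraries. Genes higher in naive cytoplasm had a median GC content of 52.6% and a median length of 2904 bases, those higher in primed cytoplasm 46.6% and 4167 bases. Replicates of the same state differed along GC content too, with 0.28 for the ratio of naive replicate 1 over 2 and −0.20 for primed replicate 1 over 2, and less along length (0.069 and −0.082). With a smooth trend on both removed from each library, 6880 genes were called, 3501 of them higher in naive cytoplasm, and the lists of naive factors and of other primed genes held 13 and 23 genes in their direction. Some groups changed with it. Of 84 ribosomal protein genes, 18 were higher in naive and 0 in primed cytoplasm (median 0.15), but 9 and 18 (median −0.12) with the trend removed, and 8 and 4 with library totals, and with 1 library left out the naive count ran from 3 (without primed replicate 2) to 45 (without naive replicate 1), so the direction of the group depended on the setting. Ftl1, the light chain of ferritin and the gene with the highest CPM of those called higher in naive cytoplasm, had 7029 and 7301 CPM in naive and 5493 and 5685 CPM in primed libraries (log2 fold change 0.36 ± 0.10, adjusted p = 0.0359), and its value became −0.058 with the trend removed. Bmi1, Bmpr1a, Ier2, Spry2 and Tagln2, named above as called, were not called with it removed.

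Other genes of high CPM were called as well. Hsp90aa1, a cytosolic chaperone, had 4099.8 and 4357 CPM in naive and 2467 and 2345 CPM in primed libraries (log2 fold change 0.81 ± 0.11, adjusted p = 0.00261). Dppa5a had 3448 and 4772 CPM in naive and 1308 and 1168 CPM in primed libraries (log2 fold change 1.73 ± 0.18, adjusted p = 0.00127), both higher in naive cytoplasm. Eno1, a glycolytic enolase, had 3045 and 3388 CPM in primed and 1932 and 1753 CPM in naive libraries (log2 fold change −0.80 ± 0.12, adjusted p = 0.00374). Flna, which crosslinks actin filaments, had 3285 and 3029.8 CPM in primed and 1605 and 1186 CPM in naive libraries (log2 fold change −1.18 ± 0.17, adjusted p = 0.00329). Col18a1 had 2109.7 and 1972 CPM in primed and 346 and 500.0 CPM in naive libraries (log2 fold change −2.27 ± 0.19, adjusted p = 0.000713). Igfbp2, which binds insulin-like growth factors, had 1970.1 and 1836 CPM in primed and 1078 and 1203 CPM in naive libraries (log2 fold change −0.74 ± 0.12, adjusted p = 0.00447). At these genes the 2 libraries of a state lay on 1 side of both libraries of the other.

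**Figure D5:**
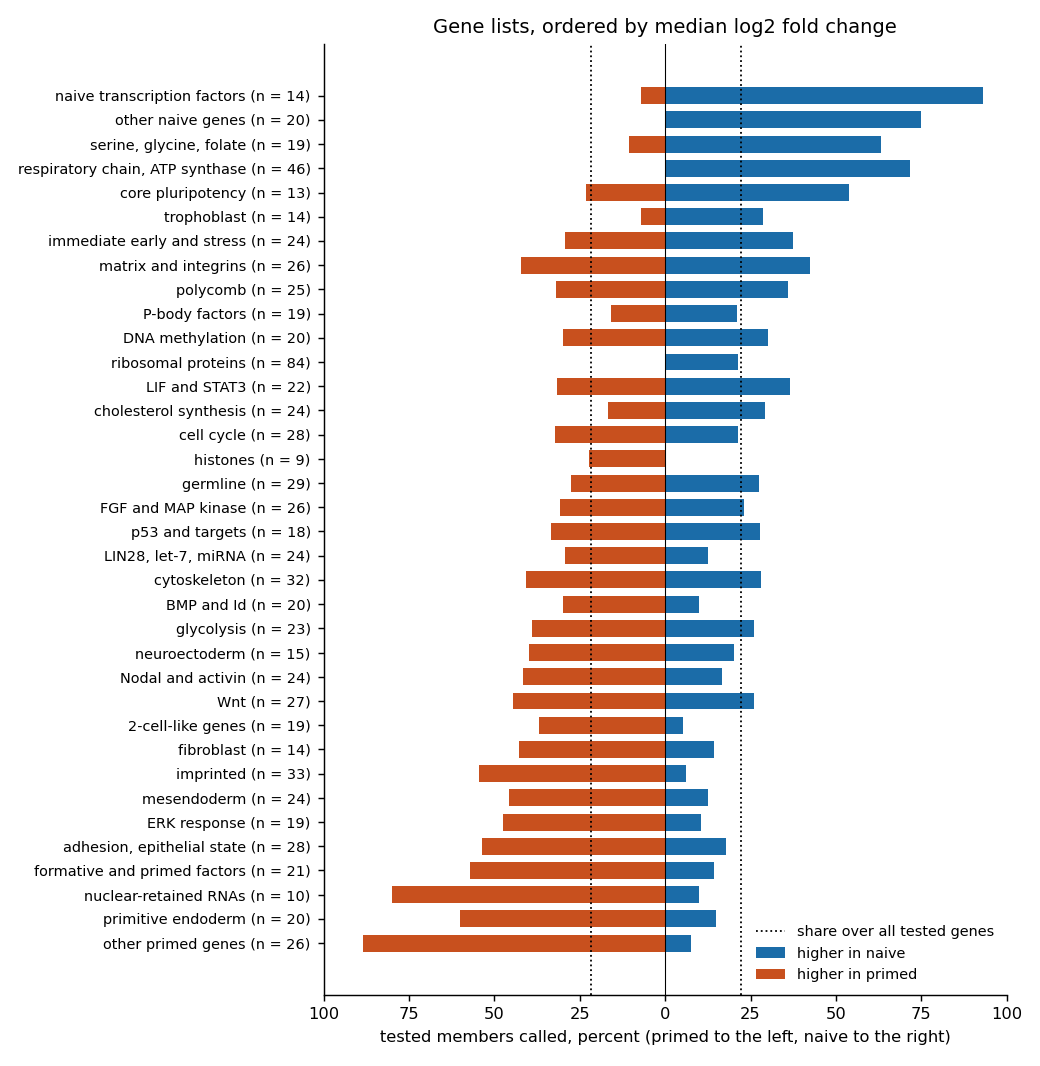
Share of tested members of each of 36 gene lists called higher in primed (orange, to the left) or naive cytoplasm (blue, to the right), in percent, ordered by the list's median fold change, with n the number of members tested and dotted lines at the shares over all genes, 21.6% and 22.1%. Naive factors, other naive genes, the serine, glycine and folate genes and the respiratory chain stand at the naive end, and other primed genes, primitive endoderm markers and nuclear-retained RNAs at the primed end.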

How the data were processed

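Cytoplasmic RNA of naive and primed ES cells was sequenced from libraries made with SMART-Seq v4 and Nextera XT. The authors aligned reads with HISAT2 to mm10 and deposited estimated counts per refGene gene from featureCounts, raw and not normalised, with some values that are fractions. The strand setting and how reads were divided are not given in the sources used here. Values were rounded, and genes with at least 10 reads over the 4 libraries were tested with edgeR 4.0.16 (R 4.3.3; TMM, quasi-likelihood, Benjamini-Hochberg) with 2 libraries per group and no covariate. Standard errors are the fold change over the square root of F. The fit was tested on simulated data with 200 changed genes. Alternatives used DESeq2 1.42.0, other scaling, filters, a replicate block, more libraries, libraries left out and, added after the data were seen, a crossed block and offsets for GC content and length (mgcv 1.9.3). The number of reads per library limits low genes: 3 reads over a group, the floor used for genes at 0, is 0.128 CPM in naive and 0.189 CPM in primed cytoplasm, for counting error only. P-values measure the spread between 2 libraries a group. Named are the 12 genes of largest fold per direction (at least 10 CPM), the 6 of highest level, the 4 of largest fold per direction in each of 36 lists, and list members whose role is described. A few genes that meet this rule are not reported here. Labels alone assign the samples, but the comparison described, its members and the lists were chosen with earlier results of these data known, so no list was tested. Some lists share genes, such as Cdx1, Ccnd1 and Col4a1, so the counts of the lists are not independent of each other. Positions and promoters are from RefSeq (GRCm38.p6, the build of mm10), with a position for 99.8% of the genes tested.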

Additional observations from a re-analysis of the deposited data

How the results depend on the processing

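The total number of genes called was 6226 with DESeq2 and 6825 with the replicate number as a block, and with 1 library left out it ran from 2242 to 9799, with 1082 to 4845 genes higher in naive and 1160 to 4954 higher in primed cytoplasm; in those fits the lone library of a state is assumed to vary like the pair of the other. Same-numbered libraries had a correlation of deviations of −0.13 over 9826 genes. They were not treated as pairs since what a number marks is not stated, and the block ended 16 of 471 calls on listed or leading genes. A crossed block, naive replicate 1 with primed replicate 2, gave 7188 calls. The correlation of fold change with GC content was 0.22 over all tested genes, and that with length −0.14 over all tested genes as well as with the median transcript. With the GC and length trend removed, 69 of the 471 calls ended, and 7 of these changed sign without being called, among them Ftl1, Xrn1 and Hells at −0.058, 0.020 and 0.057. For the 248 genes that lead by fold or level overall or within a list, 2671 of 2725 refits kept direction and call, 52 kept the direction but were no longer past the threshold, and 2 turned, those of Ftl1 and Xrn1. With 1 library left out these were 846 and 144 of 990. Over all tested genes the medians of chromosomes 2, 9, 10 and 15 turned to −0.024, −0.00094, −0.096 and −0.053. The cause of these shifts was not tested. With 2 libraries a group, small differences may be missed, above all at genes whose naive replicates were apart.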

Other observations

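Chromosomes differed in their median log2 fold change over genes of at least 10 CPM. Chromosome 8 stood highest at 0.39 over 586 genes, with 32.8% called higher in naive and 13.7% in primed cytoplasm. Chromosomes 17, 7 and 11 had medians of 0.31, 0.30 and 0.26. The X chromosome stood lowest of the chromosomes with more than 4 such genes, at −0.33 over 332 genes, with 18.1% called higher in naive and 37.7% in primed cytoplasm. These chromosomes also differ in base composition, with a median transcript GC content of 52.0% on chromosome 8 and 45.4% on X, and with the GC and length trend removed the medians were 0.30 on chromosome 8, 0.17 on 17, 0.20 on 7, 0.15 on 11 and −0.18 on X. The part of base composition, or of the number of copies of a chromosome, in these medians was not tested further.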
